A study of Mus musculus with 4 samples.

Results

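The interstitial and basement membrane collagens are structural proteins of the connective tissue around bone marrow cells. The files list 44 genes with a collagen symbol among 31053 genes, and 10 of them are described here: Col1a1, Col1a2, Col3a1, Col4a1, Col5a1, Col5a2, Col6a1, Col6a2, Col6a3 and Col8a1. They were chosen by symbol from the non-cartilage collagens, with earlier results of these data known. Another 8 collagen genes are typical of cartilage, and the other 26 non-cartilage collagens were read beside the members as a list. All values come from sorted stromal cells, split into cells with at least 1% of their transcripts from Cxcl12, called Cxcl12-rich cells, and all other stromal cells, called other cells.

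A collagen molecule is a triple helix of chains, each encoded by its own gene. Types I, III and V assemble into fibrils that give bone, tendon and loose connective tissue their strength. Type VI forms beaded filaments close to cell surfaces, and types IV and VIII form sheet-like networks, type IV being the scaffold of every basement membrane. In bone marrow, osteoblasts and fibroblasts make most fibrillar collagen, and CXCL12-abundant stromal cells form a reticular network that blood stem cells contact.

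The study compared mice that lack STAT5 in blood cells with controls, using droplet single-cell RNA sequencing. STAT5 KO mice had the genotype Vav1-Cre/+STAT5abfl/fl, in which floxed Stat5a and Stat5b are deleted by Cre under the Vav1 promoter. That promoter is active in blood cells and not designed to delete genes in stromal cells. Control mice were Vav1-Cre/+STAT5ab+/+ and carried the same transgene. There was 1 library per genotype from stromal cells of femur and tibia (called MSC by the submitters, mice of 6 to 8 weeks) and 1 per genotype from KLS blood progenitors (mice of 8 to 12 weeks). The stromal cells were freed with collagenase and sorted for CD140a and Sca-1, without CD45 or CD71 and with little or no Ter119. The labels tie no cell to a mouse, and with 1 library per group no test between genotypes was possible. The intervals given here are 95% intervals for counting error alone and do not cover differences between mice.

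The stromal control library held 672 cell barcodes with 1874023 unique molecular identifiers (UMIs, counts of captured transcripts), and the STAT5 KO library held 425 barcodes with 1270763 UMIs. After filtering, 579 control and 378 STAT5 KO cells were kept, with medians of 2744 and 2496 UMIs. Stat5a and Stat5b were read over all barcodes, before filtering, and 229 and 200 of the stromal barcodes also occurred in a KLS library. The level of Stat5a was 41.1 counts per 1000000 UMIs (CPM) in stromal control and 55.9 CPM in stromal STAT5 KO. In the KLS libraries it was 68.3 and 6.92 CPM. Stat5b was at 51.8 and 44.1 CPM in the stromal libraries and at 60.7 and 4.69 CPM in KLS cells. Both targeted genes were far lower in the KLS STAT5 KO library. Between the stromal libraries Stat5a was higher and Stat5b lower in STAT5 KO, with overlapping counting intervals. Of the sort's markers, Pdgfra (CD140a) was found at 344 and 299.8 CPM in Cxcl12-rich cells and at 269 and 224 CPM in other cells, control first. Ly6a (Sca-1) was found at 778 and 482 CPM in other cells, but on 3 and 2 UMIs in Cxcl12-rich cells. Of the markers sorted against, Ptprc (CD45) had 7 UMIs in each library, while Tfrc (CD71) was found at 167 and 211 CPM in other cells, near the level of Pdgfra, and on 5 UMIs in the Cxcl12-rich cells of each library.

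The stromal libraries shared 42 cell barcodes, and a barcode was kept where it held more UMIs. The cells kept on shared barcodes were 11 in control with 6.70% of the library's UMIs, and 30 in STAT5 KO with 28.3%. Of the 25 chondrocyte-like cells in STAT5 KO, 22 lay on shared barcodes, as did 4 of the 7 in control. Chondrocyte-like cells held 28.7% of the UMIs of other cells in STAT5 KO and 5.23% in control. Whether the shared barcodes are the same cells was not tested. Ratios of the summed collagens and of some members and lists are therefore given also without them.

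The Cxcl12-rich cells numbered 102 in control (17.6% of kept cells) and 52 in STAT5 KO (13.8%), and the other cells 477 and 326. Close to the limit, with 0.5% to 2% of UMIs from Cxcl12, lay 21 and 18 cells. The 10 collagens summed to 5686 CPM in Cxcl12-rich cells and 25534 CPM in other cells of the control, and to 4888 and 16612 CPM in STAT5 KO. Collagen transcripts were therefore less abundant in Cxcl12-rich cells in both libraries, by 4.49-fold and 3.40-fold. In control, 7 members were lower in Cxcl12-rich cells by at least 1.5-fold and 1 was higher, where 23.2% and 26.6% of all 5270 genes with at least 50 UMIs were lower and higher. In STAT5 KO, 6 members were lower and 2 higher, where 29.1% and 26.0% of 3774 genes were.

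Col3a1 and Col1a1 differed most between the compartments. Col3a1, the chain of type III collagen of loose and reticular connective tissue, was at 194 CPM in Cxcl12-rich and 5171 CPM in other control cells, a ratio of 26.6, and the ratio in STAT5 KO was 19.9. Col1a1, the alpha 1 chain of type I collagen, was lower in Cxcl12-rich cells by 18.5-fold in control and 16.6-fold in STAT5 KO. Next came Col6a3, a chain of the type VI filaments, lower by 7.39-fold and 10.1-fold on 33 and 12 UMIs in Cxcl12-rich cells. The other fibrillar chains differed less, Col1a2, the partner of Col1a1, by 3.24-fold and 2.34-fold, Col5a2 by 3.83-fold and 2.27-fold and Col5a1 by 2.17-fold and 1.38-fold. The network-forming collagens went the other way. Col8a1, a short-chain collagen known from vessel walls, was 3.24-fold and 3.12-fold higher in Cxcl12-rich cells. Col4a1, the alpha 1 chain of basement membrane collagen, was 1.49-fold higher in control and 3.57-fold higher in STAT5 KO, where its level in other cells was lower.

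**Figure D1:**
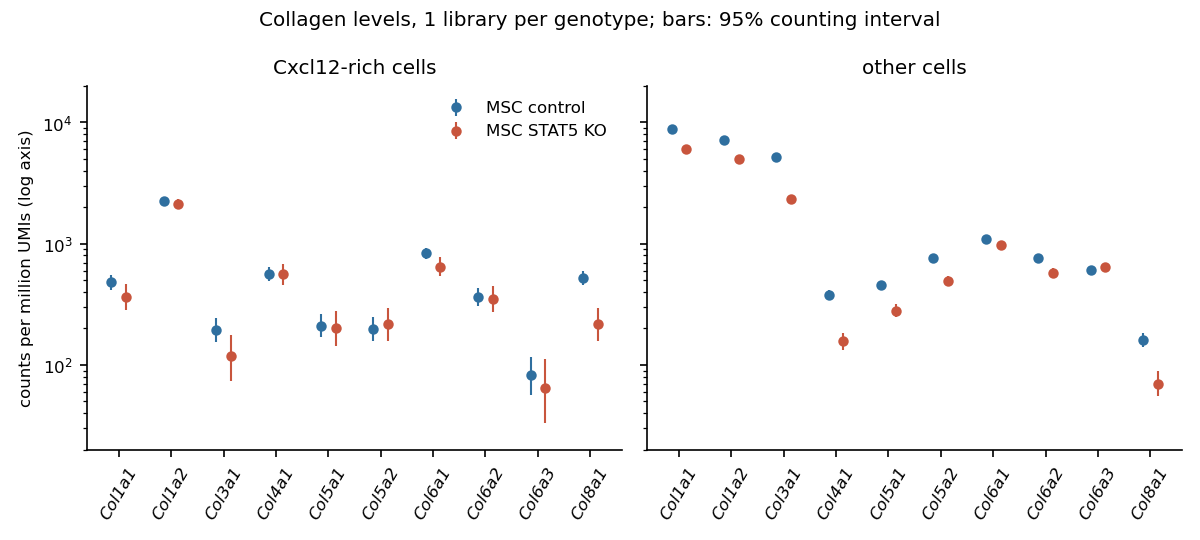
Level of each collagen in CPM (log axis) in Cxcl12-rich cells (left) and other cells (right), with 95% counting intervals and 1 library per genotype. Col1a1, Col1a2 and Col3a1 exceeded 2000 CPM in other cells of both libraries, while Col1a2 alone did so in Cxcl12-rich cells.

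In other cells, the summed collagens were at 25534 CPM in control against 16612 CPM in STAT5 KO, a log2 ratio of -0.62 (-0.65 to -0.59). A lower sum can stem from fewer collagen-rich cells or from less collagen RNA per cell, and summed levels cannot tell these apart. All 10 members had at least 50 UMIs there. By at least 1.5-fold, 5 members were lower in STAT5 KO and none was higher, where 10.7% of 6149 genes were lower and 8.16% higher. The median log2 ratio was -0.59 over the members and -0.05 over those genes. Without the chondrocyte-like cells the sums were 26730 and 21928 CPM, a log2 ratio of -0.29, and 3 members were lower past 1.5-fold, where 6.99% of 5578 genes were lower and 6.40% higher. Without every shared barcode the ratio was -0.31, and again 3 members passed, where 7.77% of 5510 genes were lower and 6.19% higher. Over all kept cells the sum was at -0.50, and 3 members were lower and none higher, where 9.30% and 6.28% of 7244 genes were.

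Type I collagen made up most of the collagen transcripts in other cells. Col1a1 was at 8901 CPM in control against 6057 CPM in STAT5 KO, a log2 ratio of -0.56 (-0.60 to -0.51). Col1a2 was at 7236 and 5004 CPM, a log2 ratio of -0.53 (-0.58 to -0.48). Both chains were lower by similar amounts, short of 1.5-fold. Without the chondrocyte-like cells these ratios were -0.14 for each chain. When erythroid-like, leukocyte-like and chondrocyte-like cells and the cluster led by Msmp and Prg4 were all left out, Col1a1 was at 0.00 and Col1a2 at -0.01.

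Type III collagen was lower by more than type I. Col3a1 was at 5171 CPM in control against 2347.5 CPM in STAT5 KO, a 2.20-fold lower level with a log2 ratio of -1.14 (-1.21 to -1.07). It was at 5457 and 3290.1 CPM without the chondrocyte-like cells, a log2 ratio of -0.73, and its ratio was -0.74 without shared barcodes. The number of Col3a1 UMIs per Col1a1 UMI was 0.581 in control and 0.388 in STAT5 KO, a comparison within each library that does not depend on the total. It does depend on the mix of cells, as 3 osteoblast-like cells held 9.28% and 30.3% of each library's Col1a1 UMIs. By cluster it was 0.351 and 0.122 in the tendon or periosteum-like cluster and 0.239 and 0.230 in that led by Kera and Angptl7. In the cluster led by Dio2 and Ptn it was higher in STAT5 KO, at 0.564 and 0.978. Type III supplied 20.3% of the members' UMIs in control and 14.1% in STAT5 KO.

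Type V collagen, a minor fibril component that starts fibril assembly, was also lower. Col5a1 was at 459.8 and 281 CPM, control first, a log2 ratio of -0.71 (-0.91 to -0.50). Col5a2 was at 763 and 497 CPM, a log2 ratio of -0.62 (-0.77 to -0.46). Both were just past 1.5-fold, at 1.63-fold and 1.53-fold. Neither passed without the chondrocyte-like cells, where the log2 ratios were -0.34 and -0.26.

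With the chondrocyte-like cells included, type VI collagen stood apart from the fibrillar chains. Col6a1 was at 1089.8 CPM in control against 970.5 CPM in STAT5 KO, a log2 ratio of -0.17 (-0.28 to -0.05). Col6a2 was at 766 and 579 CPM, a log2 ratio of -0.40 (-0.55 to -0.26). Col6a3, the largest chain of the filament, was at 607 and 648 CPM, and its interval held 0 (-0.06 to 0.24). Chondrocyte-like cells drew 95.3% and 91.1% of their member UMIs from type VI, control first, and without these cells the Col6a3 log2 ratio changed sign to -0.43. The ratios of Col6a1 and Col6a2 without them were -0.33 and -0.46. Type VI then no longer stood apart, as Col5a1 and Col5a2 were at -0.34 and -0.26 and the type I chains at -0.14 each.

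Basement membrane collagen had the lowest ratio of the members in other cells. Col4a1 was at 379 CPM in control against 157 CPM in STAT5 KO, a 2.41-fold lower level with a log2 ratio of -1.27 (-1.53 to -1.01). Without the chondrocyte-like cells the log2 ratio was -0.86, and without shared barcodes -0.83. Its partner chain Col4a2, which is no member, was at 225 and 112 CPM. There were 1.68 Col4a1 UMIs per Col4a2 UMI in control and 1.40 in STAT5 KO. Markers of pericytes and smooth muscle, cells that lie on basement membranes, summed to 696 CPM in control against 387 CPM in STAT5 KO, with 7 of 7 markers detected in both libraries. The part of these cells in the Col4a1 difference was not tested.

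Col8a1 was at 161 CPM in control against 70.4 CPM in STAT5 KO in other cells, a 2.29-fold lower level with a log2 ratio of -1.20 (-1.60 to -0.81). Without the chondrocyte-like cells the ratio was -0.79. Col3a1, Col4a1 and Col8a1 were the 3 members lower by more than 2-fold, and they were also the 3 that passed 1.5-fold without the chondrocyte-like cells.

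**Figure D2:**
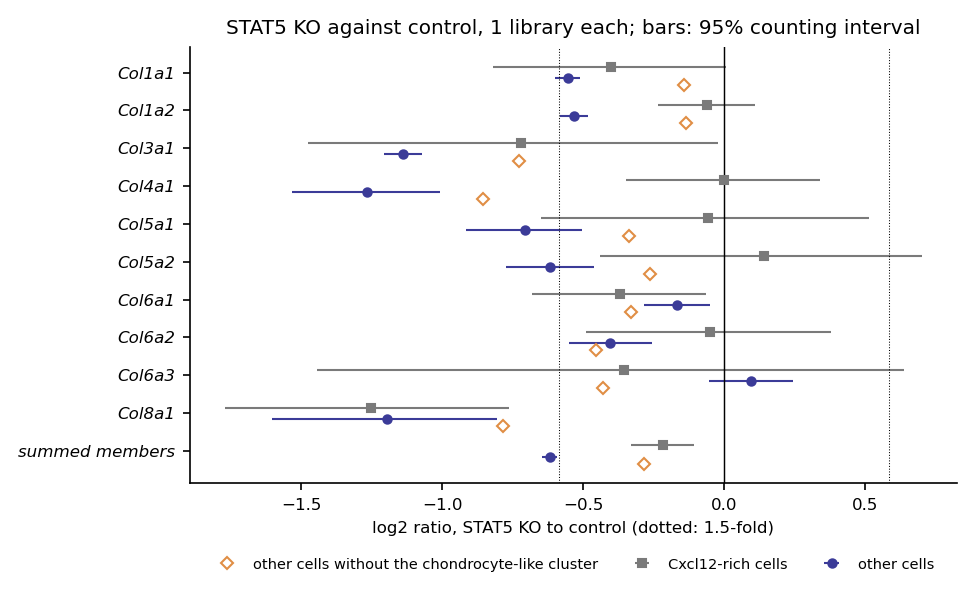
Log2 ratio of STAT5 KO to control for each collagen in other cells (circles) and Cxcl12-rich cells (squares) with 95% counting intervals, and in other cells without the chondrocyte-like cluster (open diamonds). Col8a1 was past 1.5-fold (dotted lines) in both compartments, and Col6a3 was on opposite sides of 0 with and without the chondrocyte-like cells.

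Other cell types in this compartment differed between the libraries too. Chondrocyte markers summed to 6748 CPM in control against 25909 CPM in STAT5 KO, and Col10a1 alone of the 10 markers was at 0 in STAT5 KO. Osteoblast markers summed to 1905 and 6264 CPM with 8 of 8 detected. Fibroblast markers summed to 26994 and 18911 CPM with 12 of 12 detected, and tendon or periosteum markers to 7948 and 5569 CPM with 6 of 6 detected. Erythroid markers summed to 41270 and 17829 CPM. Erythroid-like and leukocyte-like cells were 148 in control and 108 in STAT5 KO. The summed collagen ratio was -0.65 without those blood-like cells. The ratio was -0.36 when the STAT5 KO level of each cluster was weighted by the control's share of UMIs, and -0.27 without the 5% of cells with most UMIs.

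The genes of the members lie on chromosomes 1, 2, 6, 8, 10, 11 and 16 of GRCm38. Col3a1 (ENSMUSG00000026043, chr1:45311538-45349706, plus strand) and Col5a2 (ENSMUSG00000026042, chr1:45374321-45503282, minus strand) are neighbours with 24615 bases between them. Col4a1 (ENSMUSG00000031502, chr8:11198423-11312826, minus strand) overlaps the first exon of Col4a2 by 22 bases on the opposite strand. Col8a1 (ENSMUSG00000068196, chr16:57624258-57754737) is on the minus strand. The promoter windows of the 3 members that were lower by more than 2-fold in other cells are printed here, from 250 bases before to 50 bases after the start, 5′ to 3′ on the gene's strand, from RefSeq on GRCm38.p6. The Col3a1 window is chr1:45311288-45311587 (plus strand), the Col4a1 window chr8:11312777-11313076 (minus strand) and the Col8a1 window chr16:57754688-57754987 (minus strand). Capitals mark matches, on either strand, to the TATA motif TATAAA, the CCAAT motif CCAAT and the GC-box GGGCGG.
Col3a1: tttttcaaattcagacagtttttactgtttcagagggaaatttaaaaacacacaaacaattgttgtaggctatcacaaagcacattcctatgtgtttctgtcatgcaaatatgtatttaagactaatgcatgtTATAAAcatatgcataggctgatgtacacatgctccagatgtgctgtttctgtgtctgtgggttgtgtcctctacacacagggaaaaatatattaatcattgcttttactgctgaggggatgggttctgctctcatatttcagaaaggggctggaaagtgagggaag
Col4a1: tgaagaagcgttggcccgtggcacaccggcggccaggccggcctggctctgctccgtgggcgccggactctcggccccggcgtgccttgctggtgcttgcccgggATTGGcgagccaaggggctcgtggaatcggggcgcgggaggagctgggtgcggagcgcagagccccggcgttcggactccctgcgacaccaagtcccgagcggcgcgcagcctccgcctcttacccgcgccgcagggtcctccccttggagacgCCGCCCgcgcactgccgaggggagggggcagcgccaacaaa
Col8a1: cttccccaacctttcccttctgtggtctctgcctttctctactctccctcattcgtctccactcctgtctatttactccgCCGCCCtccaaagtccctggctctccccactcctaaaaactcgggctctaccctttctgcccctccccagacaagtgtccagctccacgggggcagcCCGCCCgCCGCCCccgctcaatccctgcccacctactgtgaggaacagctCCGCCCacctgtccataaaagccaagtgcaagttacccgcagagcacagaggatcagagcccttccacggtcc

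The Col3a1 window was AT-rich, with a GC content of 37.7%, and held the only TATAAA among the members' windows, 117 bases before the start. The Col4a1 window had a GC content of 74.0% with 1 CCAAT and 1 GGGCGG, and the Col8a1 window had 60.3% with 4 GGGCGG. The median over all windows was 52.7%. Windows were found for 8 of the 10 members, Col1a1 and Col5a2 having none. TATAAA was in 1 of the 8 members and in 13.6% of all 32851 windows, CCAAT in 2 members and 37.4%, and GGGCGG in 5 members and 35.7%. The STAT5 type motif TTCNNNGAA was in 0 of the 8 members and 8.30% of all windows. A match is a description of letters in the window, and a missing match says nothing of a factor elsewhere.

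In Cxcl12-rich cells the collagens summed to 5686 CPM in control against 4888 CPM in STAT5 KO, a log2 ratio of -0.22 (-0.33 to -0.11). This was nearer to 0 than the -0.62 of all other cells. The other cells without the chondrocyte-like cells (-0.29), without the 5% of cells with most UMIs (-0.27), or without the blood-like and chondrocyte-like cells and the cluster led by Msmp and Prg4 (-0.16) lay within that interval. Of the 9 members with at least 50 UMIs, 2 were lower by at least 1.5-fold and none was higher, where 10.0% of 1995 genes were lower and 6.92% higher. The median was -0.06 over these 9 members and -0.01 over those genes.

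Col8a1 had the lowest ratio there. It was at 523 CPM in control (210 UMIs) and 219.5 CPM in STAT5 KO (41 UMIs), a 2.38-fold lower level with a log2 ratio of -1.25 (-1.77 to -0.76). Col3a1 was at 194 and 118 CPM, a log2 ratio of -0.72 (-1.48 to -0.02) on 78 and 22 UMIs. Col1a1 was at 480.5 and 364 CPM, with an interval from -0.82 to 0.01. Col6a1 was at 837 and 648 CPM, a log2 ratio of -0.37 (-0.68 to -0.06). Of the 9 members, only Col8a1, Col3a1 and Col6a1 had intervals below 0.

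The other chains did not separate the genotypes in Cxcl12-rich cells at this depth. Col1a2, the most abundant member here, was at 2231 and 2136 CPM, with a log2 interval from -0.24 to 0.11. Col4a1 was at 563 and 562 CPM, with an interval from -0.35 to 0.34. Col5a1 was at 212 and 203 CPM (-0.65 to 0.51), and Col5a2 at 199 and 219.5 CPM (-0.44 to 0.70). Col6a2 was at 366 and 353 CPM (-0.49 to 0.38). Col6a3 was found on 33 and 12 UMIs, under the minimum of 50.

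The share of cells with at least 1 UMI gave the same order for Col8a1. Col8a1 was found in 46.1% of control and 28.8% of STAT5 KO Cxcl12-rich cells, whose median depths were 3941.5 and 3501 UMIs. After each cell was thinned to 1000 UMIs, with 4 and 2 shallower cells left out, it was found in 25 of 98 (25.5%, Clopper-Pearson interval 17.2 to 35.3) and 5 of 50 (10.0%, 3.33 to 21.8). No Col8a1 UMI was found in 148 and 108 erythroid-like and leukocyte-like cells, with median depths of 678.5 and 643.5 UMIs. Of these, 28 and 20 could be thinned, and 0 cells with a UMI allow a share of up to 10.7% and 15% at 3 counts, or 12.3% and 16.8% by the Clopper-Pearson upper limit. These limits are for cells with a UMI and not for cells that express the gene. In other cells, Col3a1 was found in 56.2% of control and 46.0% of STAT5 KO cells (medians 2487 and 2149 UMIs), and in 69.2% and 52.0% after thinning, with 139 and 97 shallower cells left out. Blood-like cells held Col3a1 in 1.35% and 0.926% of cells. Col4a1 was found in 30.8% and 21.2% of other cells, or 18.9% and 10.9% thinned.

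Per cell, the collagens supplied a median of 0.506% of UMIs in Cxcl12-rich control cells and 0.434% in STAT5 KO. In other cells without the erythroid-like and leukocyte-like clusters the medians were 1.90% and 1.24%. The highest cell reached 28.6% in control and 33.8% in STAT5 KO. After thinning, 64.8% of these control cells and 43.5% of the STAT5 KO cells held at least 5 of the 10 collagens. The thinned cells, 310 and 209, included 7 and 25 chondrocyte-like cells, so the mix of cells differed between the libraries. Chondrocyte-like cells had medians of 0.250% and 0.300%, and none of them held 5 members after thinning.

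**Figure D3:**
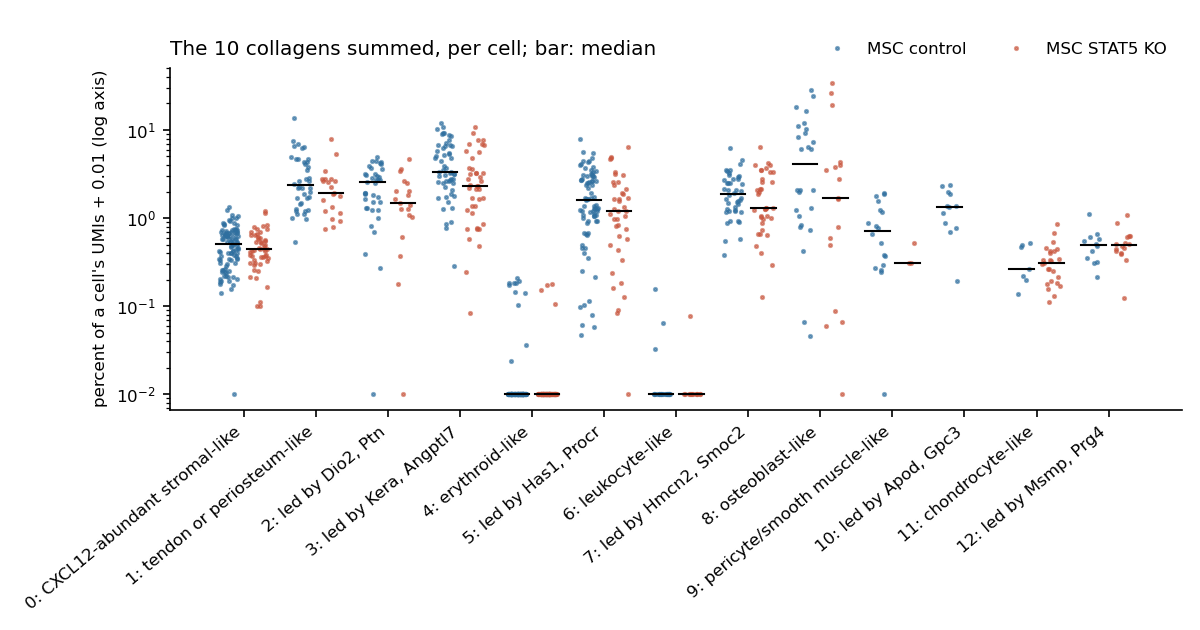
Percent of each cell's UMIs from the 10 collagens (log axis, 0.01 added) by cluster, with 1 point per cell and a bar at the median. Cells of the erythroid-like and leukocyte-like clusters lay mostly at 0, and the highest cells were in the osteoblast-like cluster.

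Cells were clustered without any collagen gene, so collagen levels did not form the clusters. Of 13 clusters, 7 could be named from fixed markers. The others are given by their leading genes. The cluster sizes are not compared, and a cluster made mostly of 1 library may be that library rather than a type. The osteoblast-like cluster, which is also led by the heat shock genes Hspa1a and Hspa1b, had the highest summed collagens, 60854 CPM in control (26 cells) and 71331 CPM in STAT5 KO (17 cells). The cluster led by Kera and Angptl7 followed with 49018 and 34934 CPM, then the tendon or periosteum-like cluster with 39260 and 25688 CPM. The CXCL12-abundant stromal-like cluster had 5442 and 4751 CPM. The chondrocyte-like cluster had 3874 CPM on 7 cells and 3431 CPM on 25 cells.

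The make-up of the collagens differed between clusters. Type I supplied 83.6% of member UMIs in osteoblast-like control cells and 92.5% in STAT5 KO. Col3a1 was the most abundant member in the clusters led by Has1 and Procr (7838 and 6261 CPM) and by Hmcn2 and Smoc2 (8124 and 5539 CPM). Col4a1 reached 1732 CPM in pericyte/smooth muscle-like control cells, which numbered 18 against 3 in STAT5 KO. Col8a1 was highest in the tendon or periosteum-like cluster of the control, at 763 CPM against 174 CPM in STAT5 KO.

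**Figure D4:**
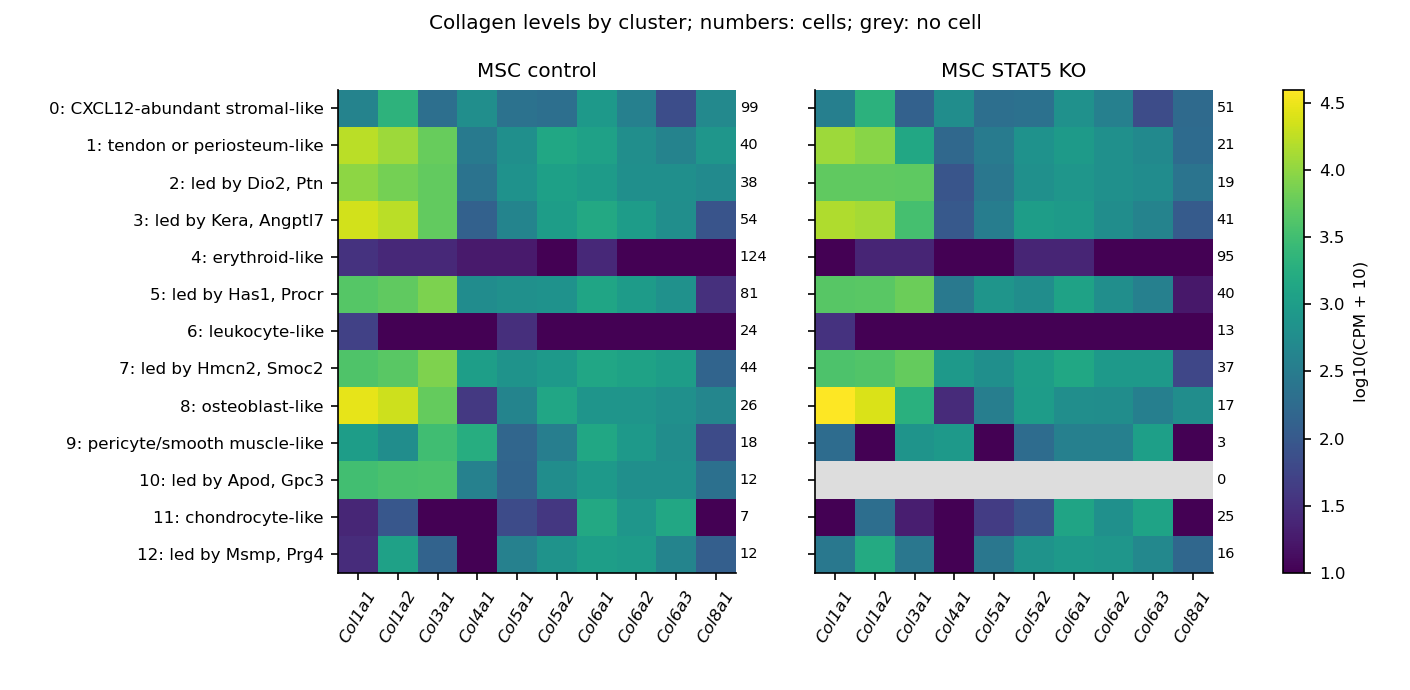
Level of each collagen by cluster in each library, as log10 of CPM with 10 CPM added, with the number of cells to the right and grey where a library had no cell. Erythroid-like and leukocyte-like cells had little of any member, and chondrocyte-like cells had mainly the 3 type VI chains.

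Of the clusters with at least 15 cells in each library, 7 were stromal. Col3a1 was lower in STAT5 KO in all 7, with log2 ratios from -2.02 to -0.10, and its interval lay below 0 in 6. Its ratio was -2.02 in the tendon or periosteum-like cluster (5821 and 1434 CPM), -1.53 in the osteoblast-like cluster (5605 and 1935.5 CPM), -0.71 in the CXCL12-abundant stromal-like cluster and -0.10 in the cluster led by Dio2 and Ptn. These values rest on few cells: 3 cells held 62.2% and 62.1% of Col3a1 UMIs in the tendon or periosteum-like cluster, and 86.5% and 90% in the osteoblast-like cluster. With each cell weighted equally, Col3a1 was lower in 7 of 7 clusters, from -1.56 to -0.24. Without the 5% of cells with most UMIs it was lower in 6 of 7, the cluster led by Kera and Angptl7 being at 0.029 in place of -0.63.

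Col8a1 reached 50 UMIs in 4 stromal clusters. It was lower in STAT5 KO in 3 of them, at -1.55 in the CXCL12-abundant stromal-like cluster (481 and 165 CPM), -2.13 in the tendon or periosteum-like cluster and -1.14 in the cluster led by Dio2 and Ptn. These ratios rest on 31, 8 and 12 UMIs in STAT5 KO, against 183, 91 and 66 in control. In STAT5 KO the 8 and 12 UMIs lay in 4 cells of each cluster, and 3 of these cells held 87.5% and 91.7%. In the osteoblast-like cluster Col8a1 was at 436 and 563 CPM, a log2 ratio of 0.37 on 30 and 32 UMIs. Col4a1 reached 50 UMIs in 3 stromal clusters, and its interval lay below 0 in 1. Its ratio was -0.98 (-1.51 to -0.48) in the cluster led by Has1 and Procr. It was -0.27 (-0.65 to 0.11) in the cluster led by Hmcn2 and Smoc2 and -0.04 (-0.38 to 0.30) in the CXCL12-abundant stromal-like cluster. The summed collagens were lower in STAT5 KO in 6 of 7 clusters, from -0.61 to -0.20, and higher in the osteoblast-like cluster.

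Of the clusters with at least 15 cells in each library, type I collagen was higher in STAT5 KO by its counting interval in the osteoblast-like cluster alone. Col1a1 was at 29548 CPM in control against 41067 CPM in STAT5 KO there, a log2 ratio of 0.47, and Col1a2 at 21345 and 24915 CPM, a ratio of 0.22. Just 3 cells held 81.3% of the Col1a1 UMIs of that cluster in STAT5 KO and 56.0% in control. Those 3 STAT5 KO cells also held 30.3% of all Col1a1 UMIs of their library. The median osteoblast-like cell had 4.11% of its UMIs from the collagens in control and 1.66% in STAT5 KO. With each cell weighted equally the ratios turned to -0.05 for Col1a1 and -0.21 for Col1a2, and the sum to -0.19 from 0.23. Without shared barcodes, which held 24.7% of this cluster's STAT5 KO UMIs, the ratios rose to 0.74 and 0.49, and the sum to 0.44. Without the 5% of cells with most UMIs, Col1a1 was at 0.20 and the sum at 0.05. In the clusters led by Dio2 and Ptn and by Kera and Angptl7, Col1a1 ratios were -0.89 and -0.58, and in the tendon or periosteum-like cluster -0.50.

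**Figure D5:**
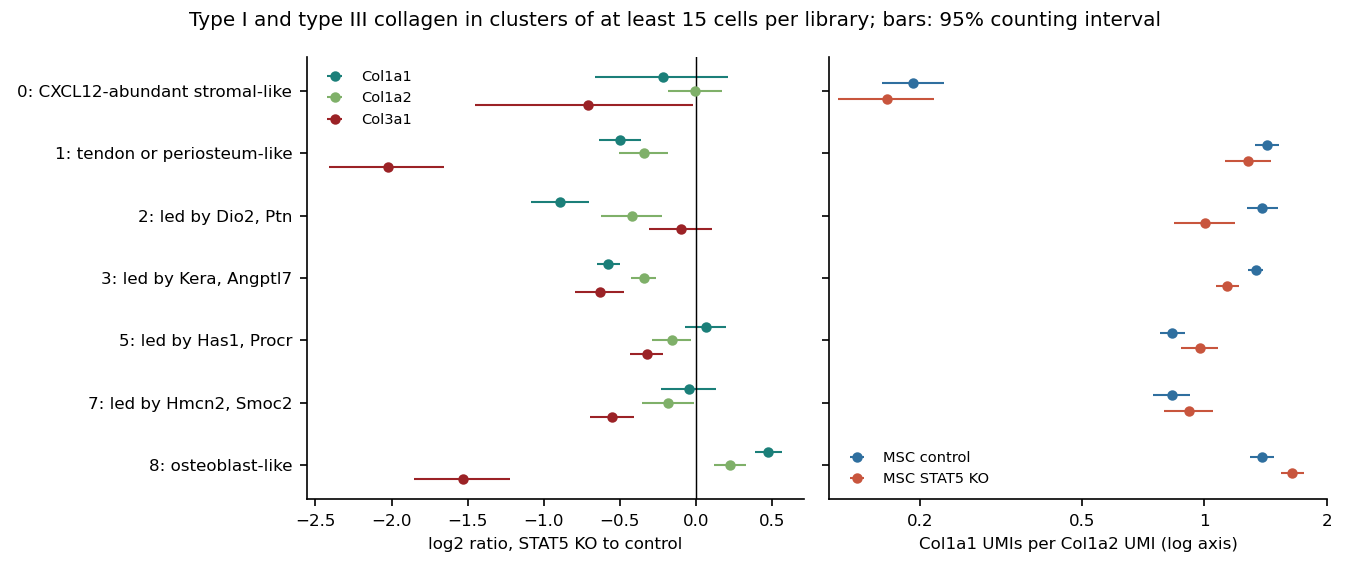
Left, log2 ratio of STAT5 KO to control for Col1a1, Col1a2 and Col3a1 in clusters with at least 15 cells per library, and right, Col1a1 UMIs per Col1a2 UMI (log axis), with 95% counting intervals. Col3a1 lay left of 0 in all 7 clusters, and the CXCL12-abundant stromal-like cluster had the lowest chain ratio, 0.193 in control and 0.167 in STAT5 KO.

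The chains of type I collagen were not in a fixed ratio. Cxcl12-rich cells held 0.215 Col1a1 UMIs per Col1a2 UMI in control (0.183 to 0.252) and 0.170 in STAT5 KO (0.130 to 0.221), while other cells held 1.23 and 1.21. The osteoblast-like cluster had 1.38 in control and 1.65 in STAT5 KO. The cluster led by Msmp and Prg4 had 1 Col1a1 UMI to 60 of Col1a2 in control and 20 to 116 in STAT5 KO. In that cluster, of 12 and 16 cells, both chains were higher in STAT5 KO, with log2 ratios of 3.84 (1.20 to 9.21) for Col1a1 and 0.47 (0.0086 to 0.94) for Col1a2. Chondrocyte-like cells of STAT5 KO had 0 Col1a1 UMIs beside 56 of Col1a2. UMIs count 3′ ends without a length correction, and capture can differ between genes, so a ratio is read across cells and not as a ratio of molecules. Among the type V chains, Col5a1 per Col5a2 was 0.602 and 0.566 in other cells and 1.06 and 0.927 in Cxcl12-rich cells. Among the type VI chains, Col6a1 per Col6a2 was 1.42 and 1.68 in other cells and 2.29 and 1.83 in Cxcl12-rich cells. Col6a3 per Col6a1 was 0.557 and 0.668 in other cells but 0.0982 and 0.0992 in Cxcl12-rich cells.

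Other genes of the collagen pathway in other cells were read from lists, as counts past 1.5-fold among genes with at least 50 UMIs. Each count is followed by the count without the chondrocyte-like cells. Over all genes with at least 50 UMIs, 10.7% were lower and 8.16% higher. Without the chondrocyte-like cells, 6.99% were lower and 6.40% higher. Of 11 other non-cartilage collagens, 6 were lower in STAT5 KO and none higher, with a median log2 ratio of -0.63, and without the chondrocyte-like cells 3 of 11 were lower. Col18a1, the core of a basement membrane proteoglycan, was at -1.63 (-1.22 without those cells) and Col5a3 at -1.09 (-0.69). Col4a2, the partner chain of Col4a1, was at -0.61 without those cells. Col13a1, Col12a1 and Col16a1 were at 0.31, 0.26 and 0.19 with the chondrocyte-like cells and at 0.11, -0.42 and 0.06 without them, where Col14a1 was the highest of the list at 0.58. Of 7 cartilage collagens, all 7 were higher, with a median of 2.19, and Col2a1 was at 2365 CPM in control against 12933 CPM in STAT5 KO. Only 4 cartilage collagens reached 50 UMIs without the chondrocyte-like cells, and 1 of them was higher, Col2a1 at 177 and 400.5 CPM. Without every shared barcode 6 of 7 cartilage collagens were higher, with a median of 1.33, where 6.19% of all genes were higher.

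As a list, genes that fold, process and cross-link collagen did not have the lower median of the members (-0.59). Of 24, 2 were lower and 3 higher, with a median of 0.23, where 10.7% of all genes were lower and 8.16% higher. Without the chondrocyte-like cells 2 were lower and none higher, with a median of -0.02, where 6.99% and 6.40% of all genes were. Loxl1 and Lox, which cross-link fibrils and elastin, were at -1.30 and -0.56, and Adamts2, which trims procollagen, at -0.63. Without those cells Loxl1 was at -0.89, Lox at -0.15 and Adamts2 at -0.22, and the other gene past 1.5-fold was the lysyl hydroxylase Plod3 at -0.63. Plod2, a lysyl hydroxylase, was at 1.20, Pcolce2 at 0.76 and P3h4 at 0.64, but without those cells they were at 0.24, -0.17 and 0.24.

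Of 24 interstitial matrix partners, 7 were lower and 1 higher, with a median of -0.28, against 5 lower and 1 higher with a median of 0.02 without the chondrocyte-like cells. The shares over all genes were 10.7% lower and 8.16% higher, and 6.99% and 6.40% without those cells. Postn, Aspn and Eln, components of fibrous and elastic tissue, were the lowest at -1.30, -1.14 and -1.05, and at -0.89, -0.73 and -0.68 without those cells. Sparc, a collagen-binding glycoprotein, was the highest at 1.09, followed by Prelp at 0.58 and Tnc at 0.49. Without the chondrocyte-like cells Sparc turned to -0.16, Prelp was at 0.43, and Tnc, at 0.91, was the 1 gene higher past 1.5-fold. Without every shared barcode 3 of 24 partners were lower and none, Tnc included, was higher past 1.5-fold. The shares over all genes were then 7.77% and 6.19%.

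Of 9 basement membrane partners, 4 were lower and 1 higher, with a median of -0.45. Of the 8 that could be read without the chondrocyte-like cells, none passed 1.5-fold, with a median of -0.29. The shares over all genes were 10.7% lower and 8.16% higher, and 6.99% and 6.40% without those cells. The laminin chains Lamc1 and Lama2 were at -0.87 and -0.79 and the linker Nid1 at -0.84, and Lamc1, Lama2 and Nid1 were at -0.48, -0.40 and -0.43 without those cells. Nid2 was at 1.68 and Hspg2 at 0.11. Without those cells Nid2 did not reach 50 UMIs, and Hspg2 turned to -0.19.

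Of 12 matrix proteases and inhibitors, 3 were lower and 4 higher, and without the chondrocyte-like cells none was lower and 3 higher. The shares over all genes were 10.7% lower and 8.16% higher, and 6.99% and 6.40% without those cells. The collagenase Mmp13 was at 29.5 CPM in control against 319.6 CPM in STAT5 KO, a log2 ratio of 3.44, and its ratio was 3.77 without those cells. Mmp3 was at 0.92 and the fibroblast protease Fap at 0.86, while Adamts1, Mmp2 and Mmp23 were at -0.66, -0.65 and -0.59. Without the chondrocyte-like cells Mmp3 was at 1.33 and the protease inhibitor Timp1 at 0.61. Fap, at 0.36, and Adamts1, Mmp2 and Mmp23, at -0.34, -0.30 and -0.53, were then short of 1.5-fold. Of 5 collagen receptors, 1 was higher and none lower, Itga10 at 0.65, which was at -0.47 without the chondrocyte-like cells, and Itga11 was the lowest at -0.45.

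In Cxcl12-rich cells fewer of these genes reached 50 UMIs. Of all 1995 genes that did so there, 10.0% were lower and 6.92% higher by at least 1.5-fold. Of 17 folding and processing genes, 3 were lower and none higher: Crtap, part of the prolyl 3-hydroxylation complex, was at 234 CPM in control against 75.0 CPM in STAT5 KO, a log2 ratio of -1.64 (-2.57 to -0.83), Loxl2 was at -0.90 and Loxl1 at -0.59. Of 12 interstitial partners, Tnc was lower at -0.69 and Dcn, a small proteoglycan that binds type I fibrils, was higher at 0.78. Of 6 basement membrane partners, Hspg2 (perlecan) was lower at -0.93. Of 8 proteases and inhibitors, Ctsk was lower at -0.73, and Adamts5 and Mmp13 were higher at 1.32 and 0.71. None of 3 receptors passed 1.5-fold.

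Across other cells with at least 1000 UMIs, the 10 genes most like the summed collagens were taken by the worse of their ranks by Spearman correlation in the libraries. Serpinf1, a secreted serpin, led by this rule, with 0.63 over 338 control cells and 0.73 over 229 STAT5 KO cells among 4086 candidates, although its worse rank was 2. Mmp2 (0.50 and 0.64), Pcolce (0.50 and 0.63), Igfbp6 (0.48 and 0.61), Dcn (0.46 and 0.63), Aebp1 (0.47 and 0.52), Ogn (0.45 and 0.49), Abi3bp (0.44 and 0.54), Timp2 (0.44 and 0.64) and Lgals1 (0.43 and 0.50) followed. These cells share a library, and the correlation also reflects depth and the mix of cell types. Pairs of members were read over a smaller set of cells, so their values are not comparable with those above. Col1a1 and Col1a2 were the closest of 45 pairs, at 0.87 over 291 control cells and 0.88 over 168 STAT5 KO cells, and the median pair was at 0.23 in both. Col3a1 and Col5a1 were at 0.58 and 0.48, while Col1a1 and Col3a1 were at 0.17 and 0.26.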

How the data were processed

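Single-cell RNA sequencing of sorted mouse stromal cells was read from 2 libraries, with 2 KLS libraries as blood-cell background. The deposited matrices hold raw counts of UMIs per gene and cell barcode, with no normalization. They were made with Cell Ranger 3.1.0, per the file headers, and the submitters' processing notes name the builds GRCm38 and mm10. The strand rule and the cell calling are not given in the sources used here. The smallest barcode held 501 UMIs in the stromal libraries.

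Cells under 200 genes or over 10% mitochondrial UMIs were removed. The highest Scrublet scores (scanpy 1.11.5) were left out at 0.8% of barcodes per 1000, which was 4 control barcodes and 1 STAT5 KO barcode, and the automatic threshold marked 0 and 1. Barcodes with more UMIs in the other stromal library were left out (31 and 11). UMIs were summed and scaled to CPM, with exact Poisson intervals for levels, exact binomial intervals for ratios and Clopper-Pearson intervals for shares. The PCR copies were collapsed by UMI, and all intervals cover counting error only. The ratio step was tested on simulated data. Clustering used 2000 variable genes without collagens, 30 components and 15 neighbours, and groups were found by the Leiden method (igraph 0.11.9, resolution 1). A cluster took a name with at least 3 fixed markers among its 10 leading genes.

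Named genes were every member, the 3 highest and 3 lowest ratios of each list in a compartment (named where they add to the account), and the 10 genes most like the summed members. The members and lists were chosen with earlier results of these data known. Alternatives changed the filters, doublets, shared barcodes, scaling (TMM, edgeR 4.0.16), Cxcl12 threshold, cells summed, fold and count minimum. Positions are those of GENCODE M21, which held 31011 of 31053 gene identifiers. Promoter windows are those of RefSeq.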

Additional observations from a re-analysis of the deposited data

Results flagged for a closer look

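Type I collagen lay on opposite sides of 0 in different clusters of at least 15 cells per library, each with a 95% counting interval away from 0. The log2 ratio of STAT5 KO to control for Col1a1 was 0.47 in the osteoblast-like cluster, against -0.50 in the tendon or periosteum-like cluster, -0.89 in the cluster led by Dio2 and Ptn and -0.58 in the cluster led by Kera and Angptl7. For Col1a2 it was 0.22 in the osteoblast-like cluster, against -0.35 in the tendon or periosteum-like cluster, -0.42 in the cluster led by Dio2 and Ptn, -0.34 in the cluster led by Kera and Angptl7, -0.16 in the cluster led by Has1 and Procr and -0.19 in the cluster led by Hmcn2 and Smoc2. The difference between clusters was not tested, since each genotype has 1 library. The values of the osteoblast-like cluster rest on 3 cells, which held 81.3% of its Col1a1 UMIs in STAT5 KO. With each cell weighted equally the osteoblast-like values were -0.05 for Col1a1 and -0.21 for Col1a2, and without shared barcodes 0.74 and 0.49.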

How the results depend on the processing

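No paired analysis was possible because there is 1 library per group and the labels carry no replicate numbers, so no replicate could be left out either. In Cxcl12-rich cells the log2 ratio of the summed collagens stayed within its counting interval under the 13 alternatives that changed its value, from -0.31 to -0.19, while 4 others left its cells and value as they were, and the count of lower members was 1 only with a 2-fold limit. In other cells the sum moved out of its interval from -0.62 under 10 of 16 alternatives, always below 0: -0.77 with no filter, -0.77 with a stricter filter, -0.31 without shared barcodes, -0.65 with hemoglobin, mitochondrial and Cxcl12 UMIs out of the total, -0.44 as a mean over cells, -0.65 without erythroid-like and leukocyte-like cells, -0.29 without chondrocyte-like cells, -0.27 without the 5% of cells with most UMIs, -0.36 with clusters weighted as in control and -0.16 without erythroid-like, leukocyte-like and chondrocyte-like cells and the cluster led by Msmp and Prg4. In all kept cells, where the sum was at -0.50 it was -0.65 with no filter, -0.63 with a stricter one, -0.25 without shared barcodes, -0.38 as a mean over cells, -0.24 without chondrocyte-like cells, -0.21 without the deepest cells, -0.30 weighted, -0.14 in the combined setting and -0.46 with TMM. The count of lower members in other cells was 5, became 3 with a 2-fold limit, without shared barcodes, as a mean over cells, without chondrocyte-like cells, without the deepest cells and in the combined setting, 2 when weighted, and 7 with no filter or a stricter one. In all kept cells the count was 3 and became 5 with no filter, 4 with a stricter filter, without barcodes larger in any other library, with hemoglobin, mitochondrial and Cxcl12 UMIs out of the total or without erythroid-like and leukocyte-like cells, 2 with a 2-fold limit or without shared barcodes, and 1 when weighted or combined. Of all genes in other cells, 10.7% were lower at first, 6.99% without chondrocyte-like cells and 7.77% without shared barcodes. In all kept cells 9.30% were lower at first. Shares over all genes are not given for the other settings, so their counts cannot be read as more or fewer members than among all genes.

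Of 470 values for single members, 364 stayed within their interval, 40 of them in settings that left the value as it was, and 106 moved. Col3a1, Col4a1 and Col8a1 stayed below 0 in other cells, from -1.17 to -0.57, -1.36 to -0.68 and -1.63 to -0.79, while Col1a1 ranged from -0.82 to 0.00 and Col6a3 from -0.50 to 0.12. Of 204 values by cluster, 180 stayed, 59 of them in settings that left the value as it was, 23 moved and 1 turned. The value that turned, Col3a1 in the cluster led by Kera and Angptl7, had been lower past 1.5-fold. It was at 0.029 without the 5% of cells with most UMIs. Values counted as moved could change sign too. With each cell weighted equally, the osteoblast-like cluster was at -0.05 for Col1a1, -0.21 for Col1a2 and -0.19 for the sum, from 0.47, 0.22 and 0.23. Col6a3 in all kept cells reached -0.43, from 0.20. The cause of these shifts was not tested. The settings by cluster, the weighting, the combined setting, the CXCL12-abundant cluster in place of the threshold and the lists without chondrocyte-like cells were chosen after seeing the data. Depth limits Col6a3 in Cxcl12-rich cells, with 45 UMIs in all.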

Other observations

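In KLS blood progenitors the members were read as background, without barcodes that hold more UMIs in another library. The 10 collagens summed to 14.1 CPM in control (3190 cells) and 11.8 CPM in STAT5 KO (7163 cells). The most abundant member in both was Col4a1, at 11.9 CPM (11.0 to 12.9) and 7.78 CPM (7.18 to 8.40) on 645 and 638 UMIs. Col5a1 was at 1.20 CPM (0.925 to 1.53) and 2.34 CPM (2.02 to 2.70), the opposite order, and Col1a2 at 0.867 and 1.21 CPM. Col3a1 was found on 0 and 9 UMIs, and Col8a1 on 0 and 2. With every barcode of the stromal libraries left out, Col3a1 was found on 0 and 1 UMIs and Col8a1 on 0 and 0. Over all KLS cells past the filter, 367 and 273 of them on barcodes of the stromal libraries, Col1a1 was at 19.2 and 8.81 CPM. Without barcodes larger in another library it was at 0.129 and 0.195 CPM. With every barcode of the stromal libraries left out it was at 0.129 and 0.061 CPM. The KLS difference in Col4a1 rests on 1 library per genotype and was not tested.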
